A study of Mus musculus with 12 samples.

Results

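The type I interferon response genes are a list of 36 mouse genes that were measured here in whole bone marrow of Fanconi anemia knockout and wild-type mice. Members were found as probe sets, the groups of short probes that stand for one transcript on an Affymetrix array, whose only gene symbol was on the list. Where a gene had several, the one with the highest mean over the 12 arrays was used. Of the 36 genes, 34 had such a probe set, out of 18193 genes in all. No probe set with that sole symbol was found for Ifi44 in the annotation used, and the only probe set naming Isg15 also carried a second symbol and was not used. Mx1 was below the filter on dim genes, with 4.17 to 4.85 over the arrays on the log2 scale, so 33 members were tested among 11908 genes.

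There were 4 groups of 3 mice, with 1 array per mouse: mice nullizygous for Fancc (Fancc-/-), mice nullizygous for Fancg (Fancg-/-), mice nullizygous for both (double knockout) and wild-type C57Bl/6 mice (WT). The marrow was unfractionated and uncultured, flushed from tibia and femur, and no RNA was pooled. The products of Fancc and Fancg belong to the Fanconi anemia core complex, a ubiquitin ligase needed to repair crosslinked DNA. The labels used here give neither the age nor the sex of the mice, nor the strain background of the knockouts, and nullizygous mice lack the gene in every tissue, not in marrow alone. All values below are log2 signals of the authors' RMA processing, so a difference of 1 means 2-fold, and values of different genes are not set against each other.

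Type I interferons are secreted proteins that bind a receptor of the chains Ifnar1 and Ifnar2, whose kinases activate transcription factors, Stat2 among them. With Irf9, Stat2 is part of a complex that enters the nucleus and binds the interferon-stimulated response element in the promoters of many genes whose products block viral replication. In bone marrow, interferon is known to act on stem cells, red cell precursors and immune cells, and plasmacytoid dendritic cells are a potent source of it.

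Before the members are described, some properties of the arrays bear on every comparison. Fancc-/- replicate 3 stood apart from the other arrays of its group: the correlations between Fancc-/- arrays over the 11908 genes ran from 0.954 to 0.985, against 0.986 to 0.993 between WT arrays. The X-linked Xist, transcribed from the inactive X chromosome, and the Y-linked Eif2s3y divided the mice. Xist read 11.2 to 12.1 in Fancc-/-, 7.34 to 11.3 in Fancg-/-, 5.99 to 7.39 in the double knockout and 11.3 to 12.2 in WT, and Eif2s3y read 2.94 to 3.30, 5.78 to 9.09, 8.81 to 9.35 and 2.89 to 3.20 in the same order of groups. In Fancg-/- replicates 1 to 3 Xist read 11.31, 7.34 and 10.75 and Eif2s3y 7.64, 9.09 and 5.78, so replicates 1 and 3 had both high Xist and raised Eif2s3y. Every Fancg-/- and double knockout array exceeded every Fancc-/- and WT array for Eif2s3y. In comparisons of Fancg-/- or the double knockout with Fancc-/- or WT, what goes with this signal cannot be told apart from genotype. The Fancg probe set read 5.61 to 5.83 in the double knockout, 6.00 to 6.64 in Fancg-/- and 6.80 to 6.86 in WT. The Fancc probe set read 5.96 to 6.17 in Fancc-/- and 5.90 to 6.18 in WT, and where its probes lie relative to the disrupted part is not known here, so it checks nothing. Neutrophil genes, which mark marrow, were abundant on every array, with summed signals of 12 genes between 99599 and 122084 on the linear scale.

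The members did not move as a group in Fancc-/- marrow, because the 3 mice went different ways. In whole marrow, fewer cells of a type and less RNA per cell cannot be told apart. On Fancc-/- replicates 1 and 2 the median member lay 0.64 and 0.50 above the WT mean, and on replicate 3 it lay at -0.51. On the other arrays this median was -0.16, -0.08 and 0.02 in Fancg-/-, -0.05, -0.27 and -0.13 in the double knockout, and 0.12, -0.16 and 0.05 in WT. Replicates 1 and 2 were thus the highest arrays of the study for these genes and replicate 3 the lowest. One of those 2 arrays was the highest of 12 for 28 of 33 members, compared with 17.2% of all genes tested, and replicate 3 was the lowest for 18 members, compared with 18.2% of all genes.

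**Figure D1:**
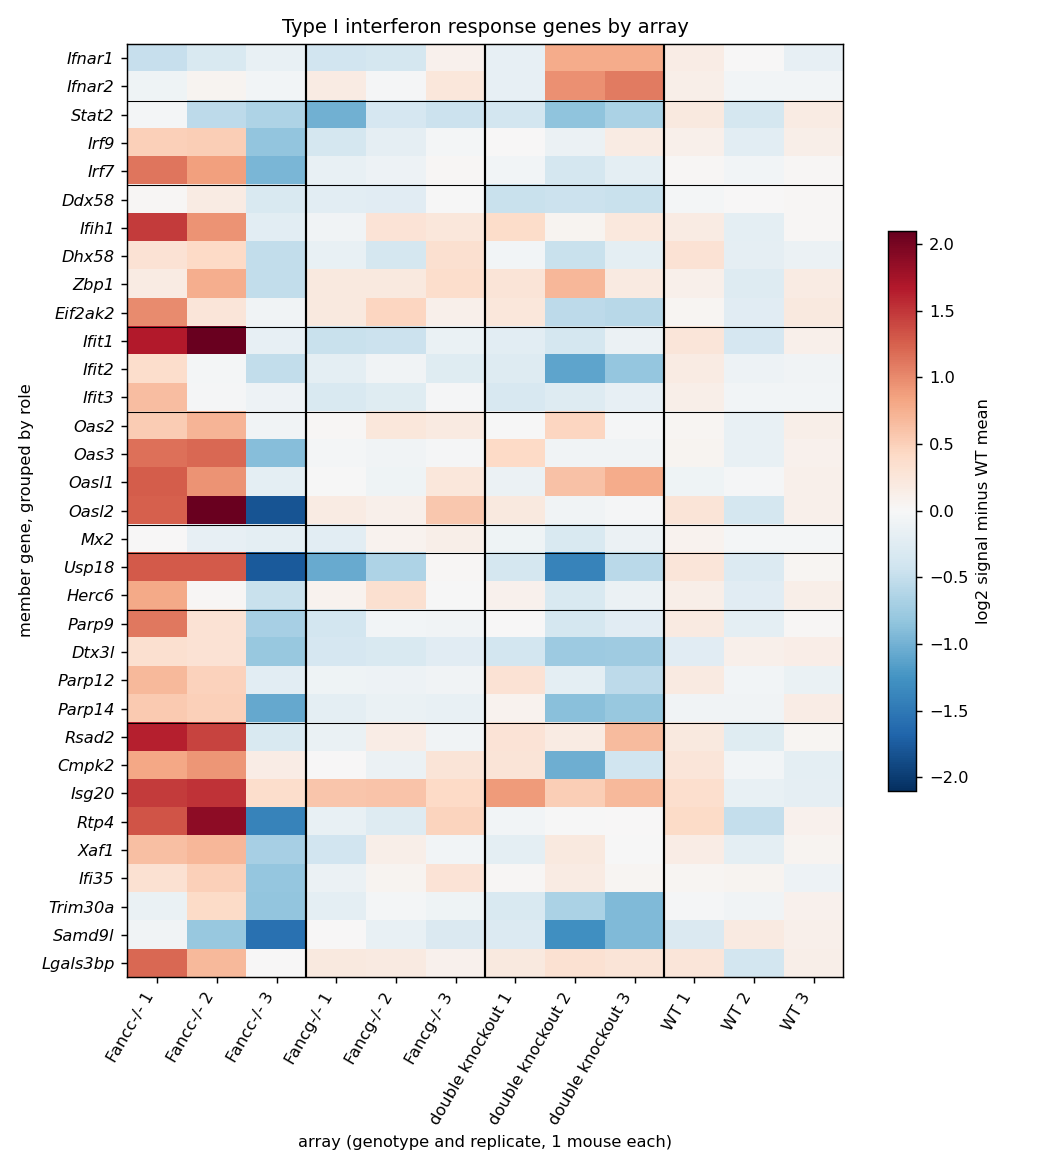
Heat map of the 33 tested members (rows, grouped by role) on the 12 arrays (columns), coloured by the log2 signal minus the WT mean of the gene. Fancc-/- replicates 1 and 2 are red for most interferon-induced genes and replicate 3 is blue, while the Ifnar1 and Ifnar2 rows are red on double knockout replicates 2 and 3.

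The spread within groups showed the same division. The median standard deviation (SD) of the members was 0.64 in Fancc-/- and 0.20 in WT, against 0.20 and 0.14 for all genes tested. In Fancg-/- and the double knockout it was 0.17 and 0.22, against 0.14 and 0.16 for all genes. An SD above 0.5 occurred for 23 of 33 members in Fancc-/-, compared with 10.3% of all genes. The widest was that of Oasl2, at 2.05.

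Relative to the WT arrays alone, Fancc-/- replicates 1 and 2 were both above every WT array for 24 of 33 members, compared with 17.1% of all genes. Replicate 3 was below every WT array for 25 members, compared with 37% of all genes. Both held for 18 members, compared with 2.82% of all genes. These counts describe arrays whose division was seen in the values, and no test is attached to them. On the probe sets used, replicates 1 and 2 were above every WT array for all sensors, all PARP and DTX3L genes and 4 of 4 oligoadenylate synthetase family members. Neither receptor chain had this. For Dhx58 and Zbp1 replicate 1 was only just above the highest WT array, at 7.26 against 7.25 and 6.87 against 6.86. Further probe sets of Ddx58, Eif2ak2, Zbp1 and Dtx3l above the filter did not have it.

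The receptor chains behaved unlike the induced genes. Ifnar1, the chain that carries the kinase Tyk2, had 7.12, 7.29 and 7.44 in Fancc-/- replicates 1 to 3, 7.21, 7.24 and 7.69 in Fancg-/-, 7.43, 8.38 and 8.39 in the double knockout, and 7.76, 7.61 and 7.44 in WT. Ifnar2, which carries Jak1, had 9.79, 9.92 and 9.81 in Fancc-/-, 10.04, 9.85 and 10.11 in Fancg-/-, 9.71, 10.84 and 10.96 in the double knockout, and 9.99, 9.82 and 9.81 in WT. On the probe sets used, double knockout replicates 2 and 3 were above all other arrays for both chains. Replicate 1 lay below the WT arrays for both. The pattern of replicates 2 and 3 above the other 10 arrays was found for 10.3% of all genes and for no member but these 2. The 2 genes lie near each other on chromosome 16 (GRCm38.p6, chr16:91485032-91510523 for Ifnar1 and chr16:91372783-91405589 for Ifnar2).

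The change of the double knockout against WT was 0.46 ± 0.24 (SE) for Ifnar1, with a limma adjusted p = 0.267, and 0.63 ± 0.25 for Ifnar2, with an adjusted p = 0.156. Without double knockout replicate 1 both passed, with 0.78 ± 0.17 (adjusted p = 0.0128) for Ifnar1 and 1.03 ± 0.12 (adjusted p = 0.000517) for Ifnar2. This fit leaves out the array that stood low for both chains and rests on 2 double knockout mice, so it describes those mice. In it 6.06% of members passed as higher than WT, compared with 6.62% of all genes. The probe sets of Ifnar2 did not give one picture: the other 2 read -0.21 and -0.13 for the double knockout minus WT. The other Ifnar1 probe set read 0.43, but without the split of the double knockout arrays. Its double knockout replicates 1 to 3 had 6.90, 6.97 and 6.85, all above the WT arrays, at 6.04 to 6.69.

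Among the transcription factors, Irf7 and Irf9 shared the division of the Fancc-/- mice and Stat2 did not. Irf7, the main driver of interferon alpha gene transcription, had 8.89, 8.61 and 6.79 in Fancc-/-, 7.60, 7.64 and 7.78 in Fancg-/-, 7.70, 7.38 and 7.54 in the double knockout, and 7.78, 7.70 and 7.79 in WT. Irf9, the DNA-binding partner of Stat2, had 8.75, 8.76 and 7.42 in Fancc-/- and 8.35, 8.03 and 8.37 in WT. For both factors replicates 1 and 2 of Fancc-/- lay above and replicate 3 below every WT array. Stat2 had 6.56, 6.07 and 5.97 in Fancc-/-, 5.60, 6.26 and 6.16 in Fancg-/-, 6.22, 5.77 and 5.94 in the double knockout, and 6.82, 6.24 and 6.78 in WT. On this probe set only the double knockout lay wholly below WT, by a small margin (6.22 against 6.24). On the second Stat2 probe set Fancg-/-, at 5.22 to 5.57, and the double knockout, at 5.09 to 5.23, both lay wholly below WT, at 5.74 to 5.86.

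The nucleic acid sensors detect viral RNA or DNA in the cell. Ifih1, known as MDA5, a cytosolic sensor of long double-stranded RNA, had 9.39, 8.87 and 7.70 in Fancc-/-, 7.85, 8.22 and 8.17 in Fancg-/-, 8.31, 7.98 and 8.14 in the double knockout, and 8.11, 7.72 and 7.95 in WT. Eif2ak2, the kinase PKR that halts translation, had 6.92, 6.19 and 5.87 in Fancc-/-, 6.17, 5.38 and 5.35 in the double knockout, and 5.98, 5.69 and 6.14 in WT. Fancc-/- replicates 1 and 2 were above every WT array for both sensors, and for Eif2ak2 replicate 3 fell inside the WT range. Ddx58, known as RIG-I, a sensor of short RNA with phosphate at the 5′ end, had 8.32, 8.47 and 7.98 in Fancc-/-, 8.07, 8.06 and 8.29 in Fancg-/-, 7.84, 7.85 and 7.83 in the double knockout, and 8.26, 8.31 and 8.32 in WT. For Ddx58 the 3 double knockout values were nearly equal and lay below every array of the other groups, and Fancc-/- replicate 1 was only just above WT. Dhx58, a regulator of both RNA sensors, ran from 6.43 to 7.37 over the arrays, and Zbp1, a sensor of left-handed nucleic acids, from 6.17 to 7.44; each had its lowest value on Fancc-/- replicate 3 and its highest on Fancc-/- replicate 2.

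The IFIT proteins bind viral RNA and block its translation, and they did not move alike. Ifit1 had 6.59, 6.99 and 4.74 in Fancc-/-, 4.46, 4.47 and 4.78 in Fancg-/-, 4.70, 4.56 and 4.79 in the double knockout, and 5.18, 4.56 and 5.02 in WT. Ifit2 had 7.55, 7.15 and 6.67 in Fancc-/-, 6.99, 7.11 and 6.93 in Fancg-/-, 6.91, 6.08 and 6.37 in the double knockout, and 7.36, 7.09 and 7.12 in WT. Ifit1 was high on 2 Fancc-/- arrays and within or below the WT range elsewhere. It was at or below the array median on 8 of the 12 arrays, all Fancg-/- and double knockout arrays among them, so the size of its differences from those groups is not given below. By contrast, for Ifit2 the double knockout lay below every WT array. Ifit3 had 6.97, 6.30 and 6.22 in Fancc-/- and 6.45, 6.27 and 6.27 in WT, and its 3 double knockout values, 6.00 to 6.16, were all below WT.

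Promoters of Ifit1, Oas3 and Rsad2 are shown because their Fancc-/- replicates 1 and 2 lay above all 9 arrays of the other groups and they hold the core of the interferon-stimulated response element close to their start. The letters searched were GAAANNGAAA on either strand, which on the other strand reads TTTCNNTTTC, and capitals mark the matches. Each line gives the 250 bases before an annotated start from RefSeq (GRCm38.p6), 5′ to 3′ along the gene. The stretches are chr19:34640639-34640888 (plus strand) for Ifit1, chr5:120777660-120777909 (minus strand) for Oas3 and chr12:26456453-26456702 (minus strand) for Rsad2. The gene bounds used here put the 5′ end of Oas3 at chr5:120777684, inside its stretch, so the start used for Oas3 is another one.
Ifit1: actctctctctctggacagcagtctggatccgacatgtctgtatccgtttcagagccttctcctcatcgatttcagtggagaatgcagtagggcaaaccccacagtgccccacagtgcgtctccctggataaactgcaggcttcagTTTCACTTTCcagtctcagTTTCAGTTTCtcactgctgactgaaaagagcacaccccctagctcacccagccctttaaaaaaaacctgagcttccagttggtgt
Oas3: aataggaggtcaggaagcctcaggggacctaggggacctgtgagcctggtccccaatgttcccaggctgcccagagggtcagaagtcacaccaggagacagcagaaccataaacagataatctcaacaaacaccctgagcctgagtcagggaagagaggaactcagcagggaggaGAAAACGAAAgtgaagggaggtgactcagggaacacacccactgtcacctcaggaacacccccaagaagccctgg
Rsad2: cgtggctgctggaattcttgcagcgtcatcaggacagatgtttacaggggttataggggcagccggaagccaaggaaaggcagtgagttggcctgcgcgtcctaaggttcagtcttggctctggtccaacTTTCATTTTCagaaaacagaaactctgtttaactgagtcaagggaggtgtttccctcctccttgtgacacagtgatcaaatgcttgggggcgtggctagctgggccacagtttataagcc
Ifit1 held 2 matches, whose first bases lie 104 and 85 bases before the start, Oas3 held 1 at 75 bases and Rsad2 held 1 at 120 bases. In windows of 300 bases, from 250 before to 50 after the start, a match was present in 9 of the 25 measured members that have a window (36%), compared with 3.99% of 27025 genes. The other 6 were Ddx58, Eif2ak2, Ifih1, Ifit3, Stat2 and Trim30a. The windows of Irf7, Oasl2 and Isg20 did not hold these letters. A match is a description of letters, and no binding was measured.

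The oligoadenylate synthetases make short chains of linked adenosine that activate RNase L, which degrades RNA. Oas3 had 8.37, 8.42 and 6.32 in Fancc-/-, 7.17, 7.14 and 7.19 in Fancg-/-, 7.63, 7.14 and 7.14 in the double knockout, and 7.28, 7.06 and 7.31 in WT. Oasl2, a member of the family with a ubiquitin-like tail, had 8.17, 8.99 and 5.10 in Fancc-/-, 7.08, 7.01 and 7.47 in Fancg-/-, 7.11, 6.83 and 6.89 in the double knockout, and 7.17, 6.54 and 7.01 in WT. In both genes the Fancc-/- values flanked all 9 arrays of the other groups, with 2 above and 1 below. Oasl1 had 7.24, 6.90 and 5.75 in Fancc-/- against 5.88, 5.94 and 6.06 in WT, and Oas2 had 7.34, 7.52 and 6.73 against 6.84, 6.64 and 6.93. For Oas2 replicate 3 was inside the WT range. Oasl1 also read 6.58 and 6.73 on double knockout replicates 2 and 3, above every WT array, and 5.84 on replicate 1.

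Of the antiviral Mx GTPases, Mx2 was nearly flat, with 5.57, 5.40 and 5.36 in Fancc-/-, 5.35, 5.65 and 5.70 in Fancg-/-, 5.47, 5.26 and 5.44 in the double knockout, and 5.65, 5.53 and 5.52 in WT. Usp18, the protease that removes Isg15 from proteins and dampens receptor signalling, varied widely. It had 7.42, 7.42 and 4.36 in Fancc-/-, 5.06, 5.48 and 6.15 in Fancg-/-, 5.76, 4.72 and 5.56 in the double knockout, and 6.38, 5.83 and 6.18 in WT. Fancc-/- replicate 3 was the lowest of the 12 arrays, and the double knockout lay wholly below WT. On Fancc-/- replicate 3 and double knockout replicate 2, Usp18 was at or below the array median, so the size of these low values is uncertain. Herc6, the ligase that attaches Isg15 in mice, had 8.40, 7.63 and 7.14 in Fancc-/- and 7.73, 7.38 and 7.73 in WT.

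**Figure D2:**
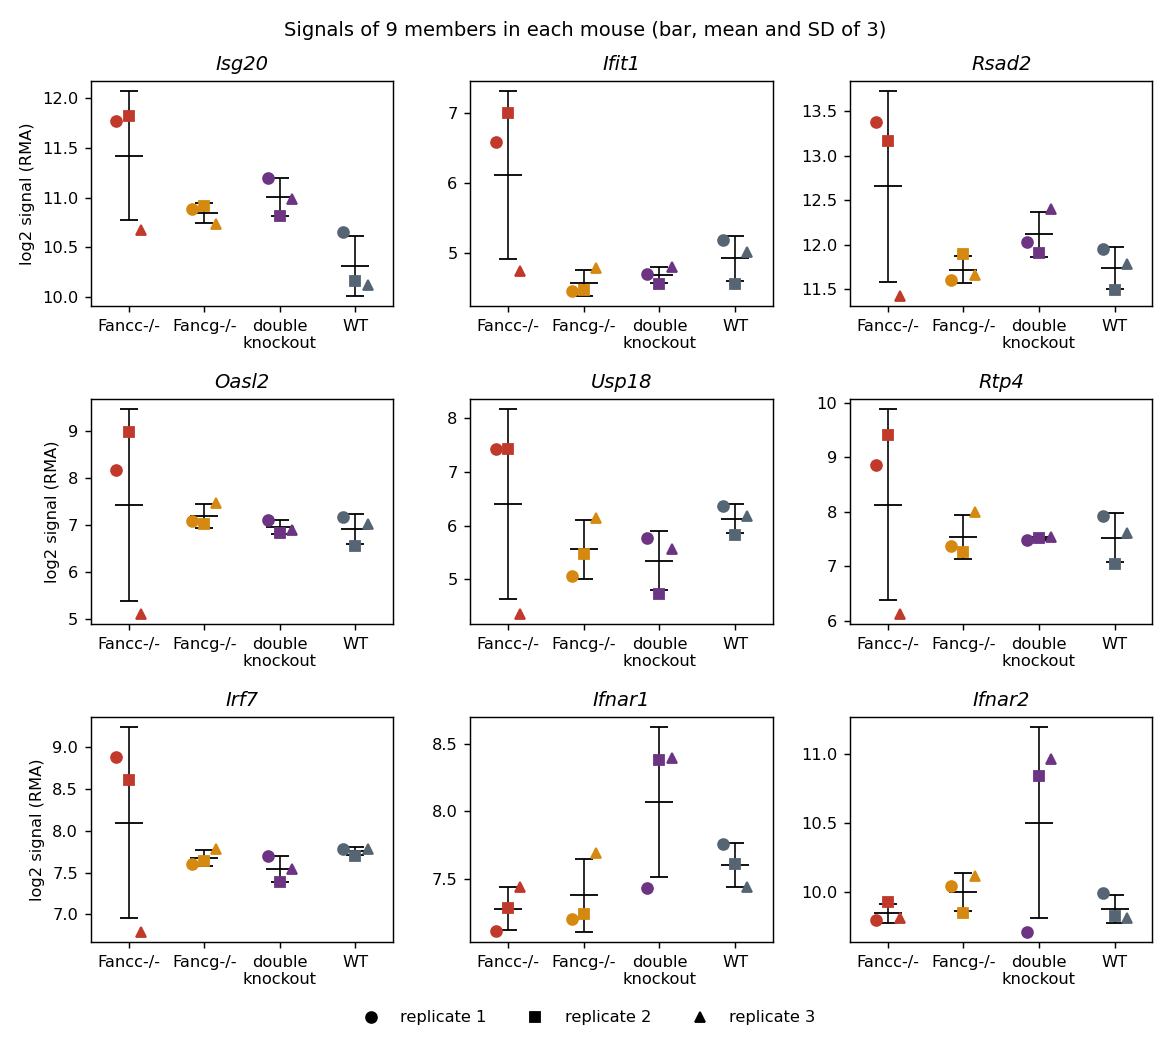
Log2 signals of 9 members in each mouse by genotype, with replicate number as the marker shape and bars for the mean and SD of 3 mice. Fancc-/- replicate 3 lies at the bottom of its group for Isg20, Ifit1, Rsad2, Oasl2, Usp18, Rtp4 and Irf7, and double knockout replicates 2 and 3 lie above all other arrays for Ifnar1 and Ifnar2.

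Parp9 and Dtx3l form an ADP-ribosyltransferase and ubiquitin ligase pair, and Parp12 and Parp14 are further ADP-ribosyltransferases with antiviral roles. On the probe sets used, Fancc-/- replicates 1 and 2 exceeded the 9 arrays of the other groups for all 4 genes, and replicate 3 was below every WT array. Parp9 had 8.86, 8.05 and 7.06 in Fancc-/- and 7.93, 7.54 and 7.78 in WT. Parp14 had 7.43, 7.38 and 5.80 in Fancc-/- and 6.81, 6.81 and 7.03 in WT. Parp12 ran from 6.51 to 7.75 over the 12 arrays. Dtx3l had 8.26, 8.24 and 7.13 in Fancc-/-, 7.58, 7.61 and 7.69 in Fancg-/-, 7.55, 7.16 and 7.18 in the double knockout, and 7.68, 8.03 and 8.07 in WT, so that for this gene the double knockout lay below every WT array. On the second Dtx3l probe set Fancc-/- replicate 2, at 7.90, was below every WT array, at 7.93 to 7.95.

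Among the remaining effectors, Isg20, an exonuclease that degrades single-stranded RNA, was the 1 member of 33 whose Fancc-/- values all lay above WT, compared with 11.1% of all genes. It had 11.78, 11.82 and 10.68 in Fancc-/-, 10.89, 10.91 and 10.73 in Fancg-/-, 11.20, 10.82 and 10.99 in the double knockout, and 10.66, 10.16 and 10.11 in WT. All 9 knockout arrays were above all 3 WT arrays, with Fancc-/- replicate 3 only just above WT replicate 1. The gene lies on chromosome 7.

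Rsad2, known as viperin, is an enzyme that makes a chain-terminating nucleotide, and Cmpk2 is a nucleotide kinase encoded beside it on chromosome 12. On the probe sets used, both had high values on 2 Fancc-/- arrays. Rsad2 had 13.38, 13.16 and 11.42 in Fancc-/-, 11.60, 11.89 and 11.66 in Fancg-/-, 12.03, 11.91 and 12.41 in the double knockout, and 11.95, 11.49 and 11.78 in WT. Cmpk2 had 8.94, 9.06 and 8.29 in Fancc-/-, 8.14, 8.00 and 8.40 in Fancg-/-, 8.39, 7.10 and 7.70 in the double knockout, and 8.39, 8.07 and 7.92 in WT. The low Cmpk2 values of double knockout replicates 2 and 3 had no counterpart in Rsad2. The second Cmpk2 probe set read 0.09 for the double knockout minus WT, against -0.39 on the one used. It had 8.53, 7.69 and 7.94 in Fancc-/- and 7.79, 6.83 and 7.72 in WT, so there Fancc-/- replicate 2 was inside the WT range.

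Rtp4, a chaperone that limits viral replication, had 8.85, 9.40 and 6.12 in Fancc-/-, 7.36, 7.25 and 7.99 in Fancg-/-, 7.47, 7.52 and 7.53 in the double knockout, and 7.93, 7.03 and 7.62 in WT. Xaf1, an antagonist of the apoptosis inhibitor XIAP, had 8.39, 8.45 and 7.06 in Fancc-/- and 7.90, 7.55 and 7.81 in WT. Ifi35, an interferon-induced leucine zipper protein, had 10.11, 10.29 and 8.97 in Fancc-/- and 9.82, 9.85 and 9.68 in WT. On the probe sets used, all 3 genes had the array pattern of Oasl2. On a further Ifi35 probe set Fancc-/- replicate 2, at 8.20, was inside the WT range, at 8.19 to 8.33. Another Ifi35 probe set kept the pattern, with 8.59, 8.52 and 7.45 in Fancc-/- and 7.82 to 8.08 in WT. Lgals3bp, a secreted binding partner of galectin-3, had 9.50, 8.97 and 8.30 in Fancc-/- and 8.55, 7.91 and 8.41 in WT, with replicate 3 inside the WT range.

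Trim30a, a ubiquitin ligase family member that restrains inflammatory signalling, and Samd9l, a restrictor of growth and viral replication whose human counterpart is mutated in an inherited marrow failure syndrome, had means below WT in all 3 knockout groups. Samd9l had 9.98, 9.26 and 8.48 in Fancc-/-, 10.05, 9.89 and 9.74 in Fancg-/-, 9.76, 8.75 and 9.12 in the double knockout, and 9.75, 10.24 and 10.16 in WT. Trim30a had 9.42, 9.95 and 8.73 in Fancc-/-, 9.35, 9.51 and 9.46 in Fancg-/-, 9.23, 8.90 and 8.63 in the double knockout, and 9.54, 9.48 and 9.65 in WT. The double knockout lay wholly below WT for Trim30a, and for Samd9l only its replicate 1 overlapped WT.

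Set against WT over all 3 mice, 1 of 33 members changed in Fancc-/- marrow, compared with 4.53% of all genes tested, and that member was Isg20. Isg20 averaged 11.42 ± 0.65 in Fancc-/- and 10.31 ± 0.30 in WT (SD, n = 3 each), a rise of 1.12 ± 0.26 (SE) or 2.17-fold, with a limma adjusted p = 0.0329 over the 11908 genes. Its call depended on the other mice in the fit: without WT replicates 2 or 3, Fancc-/- replicates 1 or 2, or Fancg-/- replicates 1 or 2, each left out in turn, the limma adjusted p ran from 0.0515 to 0.132, and it was 0.131 when only the Fancc-/- and WT arrays were fitted. The members with the next smallest p had large spreads. Ifit1 read 1.19 ± 0.43 (adjusted p = 0.149), Lgals3bp 0.63 ± 0.25 (adjusted p = 0.189), Samd9l -0.81 ± 0.33 (adjusted p = 0.204) and Rsad2 0.91 ± 0.39 (adjusted p = 0.217). Whatever their p, 23 members had a positive difference, 69.7%, compared with 48.4% of all genes, and the median difference was 0.21 against -0.01 for all genes.

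Without Fancc-/- replicate 3 the count was 11 of 33, compared with 4.73% of all genes, and all 11 were higher than in WT. They were Ifit1, Rsad2, Isg20, Oas3, Irf7, Oasl2, Ifih1, Rtp4, Lgals3bp, Oasl1 and Usp18. Ifit1 was then 1.87 ± 0.19 above WT (limma adjusted p = 0.000866), a size that rests on WT values near the array median. Oasl2 was 1.67 ± 0.25 above WT (3.18-fold, adjusted p = 0.00375), Rtp4 1.60 ± 0.28 (adjusted p = 0.00705) and Rsad2 1.53 ± 0.16 (adjusted p = 0.000866). Irf7 was 0.99 ± 0.14 above WT, with an adjusted p = 0.00270. The median member difference was 0.59. This fit leaves out an array that stood low for these genes and rests on 2 Fancc-/- mice, so it describes those mice. Without replicate 1 or without replicate 2, both of which were high, no member passed, and the median was -0.05 without replicate 1.

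**Figure D3:**
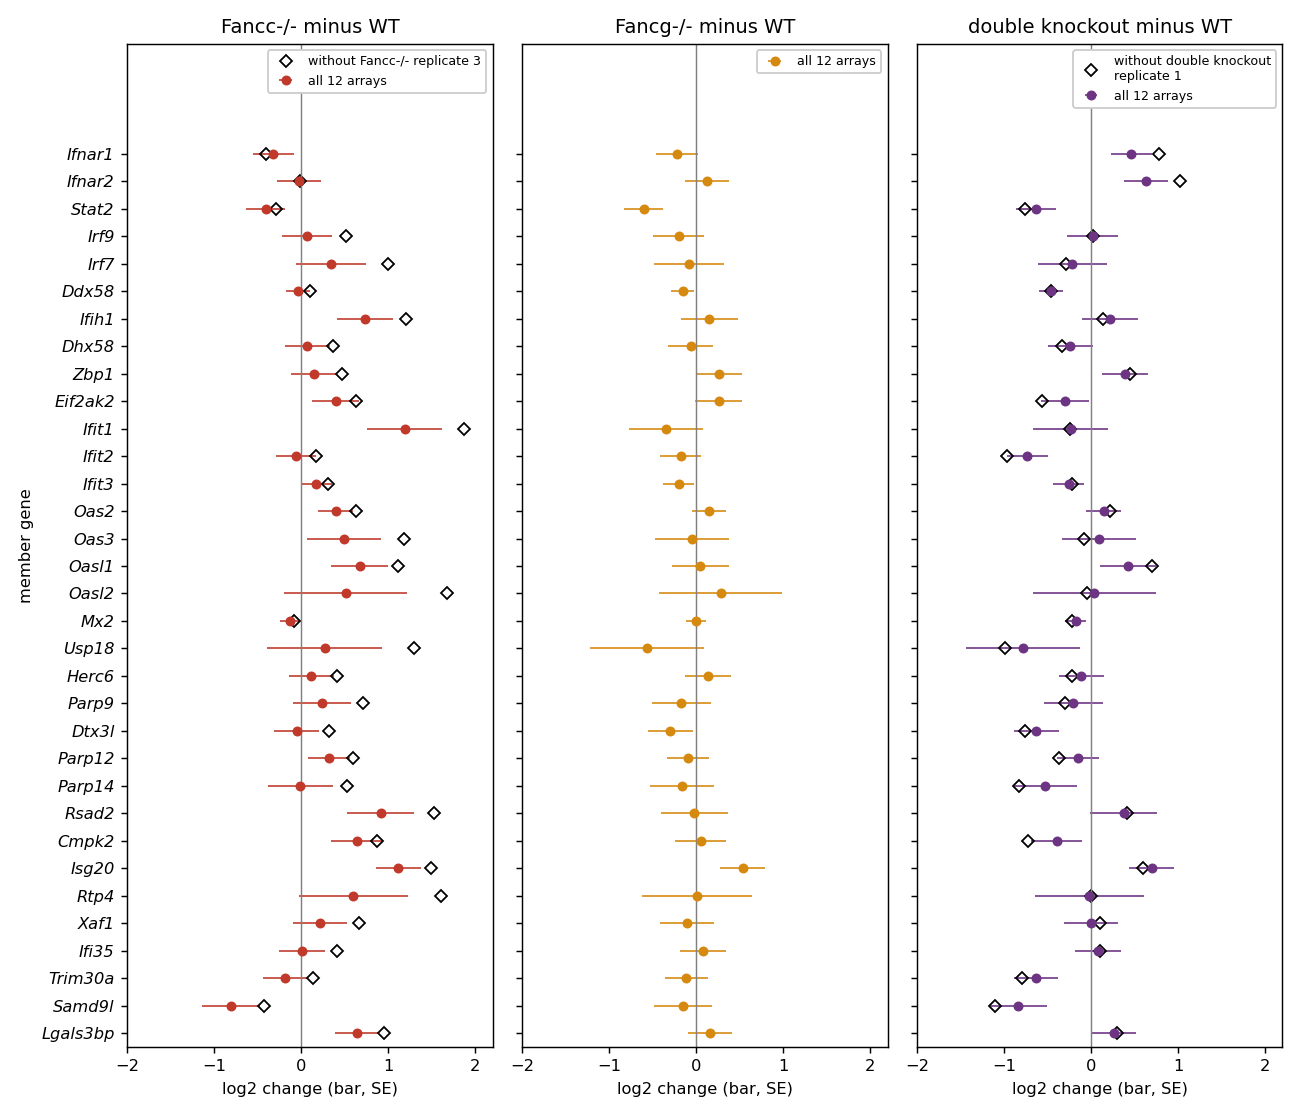
Log2 change of each tested member in Fancc-/-, Fancg-/- and the double knockout against WT, with filled points for the fit over all 12 arrays (bars, SE) and open diamonds for the fit without Fancc-/- replicate 3 (left) or without double knockout replicate 1 (right). Most Fancc-/- points shift right without replicate 3, and the Fancg-/- points lie between -0.60 and 0.53. Isg20 is among the members that have the same sign in all panels.

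In Fancg-/- marrow no member passed against WT by limma, compared with 0.0504% of all genes, and 1 member (3.03%) had an unadjusted p below 0.05, compared with 7% of all genes. That member was Stat2, at -0.60 ± 0.23 (adjusted p = 0.594). The next smallest p values were those of Isg20 at 0.53 ± 0.26 (adjusted p = 0.734), Ddx58 at -0.16 ± 0.14 (adjusted p = 0.926), Dtx3l at -0.30 ± 0.26 (adjusted p = 0.926) and Ifit3 at -0.20 ± 0.18 (adjusted p = 0.929). The median member difference was -0.06, with 13 members higher and 20 lower whatever their p. On the probe sets used, Isg20 and Zbp1 were the members whose Fancg-/- values all lay above WT, 2 of 33, compared with 8.67% of all genes. For Zbp1 the margin was small (6.89 against 6.86). On its second probe set Fancg-/-, at 5.94 to 6.23, overlapped WT, at 5.65 to 6.15.

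In the double knockout no member passed against WT by limma, compared with 5.28% of all genes, and 8 (24.2%) had an unadjusted p below 0.05, the same share as of all genes (24.2%). The smallest p values were those of Ddx58 at -0.46 ± 0.14 (adjusted p = 0.0669), Ifit2 at -0.73 ± 0.23 (adjusted p = 0.0834), Stat2 at -0.63 ± 0.23 (adjusted p = 0.116), Isg20 at 0.69 ± 0.26 (adjusted p = 0.132) and Trim30a at -0.63 ± 0.25 (adjusted p = 0.147). The median member difference was -0.15. For 8 members all double knockout values lay below all WT values, compared with 16.9% of all genes: Stat2, Ddx58, Ifit2, Ifit3, Mx2, Usp18, Dtx3l and Trim30a. On the probe sets used, Isg20 and Zbp1 lay wholly above WT, compared with 12.5% of all genes. The margin of Zbp1 was again small (6.88 against 6.86), and on its second probe set the double knockout, at 6.01 to 6.29, overlapped WT, at 5.65 to 6.15.

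By the member median, double knockout replicate 1 was the nearest of its group to WT, at -0.05 against -0.27 and -0.13 on replicates 2 and 3. Replicates 2 and 3 were both below every WT array for 16 of 33 members, compared with 27.6% of all genes. Without replicate 1, 4 members passed against WT, compared with 15.6% of all genes: Ifnar1 and Ifnar2 above, Ifit2 at -0.96 ± 0.22 (limma adjusted p = 0.014) and Samd9l at -1.11 ± 0.34 (adjusted p = 0.0471) below. The double knockout comparison also moved with Fancc-/- replicate 3 through the shared estimate of the spread. Without that array 5 members passed, compared with 11.6% of all genes: Isg20 higher, and Dtx3l, Ddx58, Trim30a and Ifit2 lower.

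Comparisons among the knockouts share arrays with those above. No member passed between the double knockout and Fancc-/- by limma, compared with 0.0084% of all genes, while 9 (27.3%) had an unadjusted p below 0.05, compared with 19.7% of all genes, and 29 of 33 were lower in the double knockout whatever their p (87.9%, compared with 53.2% of all genes). The smallest p values belonged to Cmpk2 at -1.03 ± 0.29 (adjusted p = 0.112), Ifit1 (lower, adjusted p = 0.127) and Ifnar1 at 0.79 ± 0.24 (adjusted p = 0.128). Without Fancc-/- replicate 3, 13 members were lower in the double knockout and 0 higher, compared with 2.75% of all genes called. Without double knockout replicate 1, 5 members passed, compared with 10.8% of all genes: Ifnar1 and Ifnar2 were higher, and Eif2ak2, Ifit2 and Cmpk2 lower, than in Fancc-/-. Between Fancg-/- and Fancc-/- no member passed, compared with 0.109% of all genes, and 3 (9.09%) had an unadjusted p below 0.05, compared with 9.04% of all genes. Without Fancc-/- replicate 3, 9 members were lower in Fancg-/-, compared with 0.428% of all genes called.

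Between the double knockout and Fancg-/- no member passed by limma, compared with 0% of all genes, and 3 members had an unadjusted p below 0.05, compared with 14.4% of all genes: Ifnar1, Ifit2 and Ddx58. Without double knockout replicate 1, 2 members passed, compared with 8.34% of all genes: Ifnar1 was 1.00 ± 0.17 higher (adjusted p = 0.00607) and Ifnar2 0.90 ± 0.12 higher (adjusted p = 0.00173) than in Fancg-/-. That fit leaves out the array that stood low for both chains, so it describes 2 double knockout mice. Over all 12 arrays the other 2 Ifnar2 probe sets read 0.06 and 0.02 for this difference, against 0.50 on the one used. The other Ifnar1 probe set read 0.50, against 0.69. The interaction, which takes the changes of Fancc-/- and Fancg-/- against WT together away from that of the double knockout, passed for no member, compared with 0.0084% of all genes, and 4 (12.1%) had an unadjusted p below 0.05, compared with 14.9% of all genes. It was negative for 28 of 33 members (84.8%, compared with 52.1% of all genes), with a median of -0.35. Without Fancc-/- replicate 3 it passed for 5 members, all negative, compared with 0.882% of all genes. These were Ifit1, Irf7, Isg20, Oasl2 and Rsad2. Without double knockout replicate 1 it passed for Ifnar1, Ifnar2 and Cmpk2, compared with 4.99% of all genes, with the same limit for the receptor chains.

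Other genes of the pathway, on lists that share no gene with the members, gave the following. Of 12 listed interferon genes 8 were measured and 2 were above the filter, Ifna1 and Ifnz, with changes of 0.35 ± 0.14 (adjusted p = 0.192) and 0.36 ± 0.21 (adjusted p = 0.375) in Fancc-/-. Ifnb1, the first interferon made by most infected cells, was below the filter, at 4.01 to 4.24 in Fancc-/- and 3.76 to 4.11 in WT. On Fancc-/- replicate 3, where the members were low, the median of the 2 tested interferon genes was 0.73 above WT, against 0.17 and 0.17 on replicates 1 and 2.

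Of 12 tested signalling genes, 2 fell and 0 rose in Fancc-/-, where 4.53% of all genes passed: Ptpn6, a phosphatase that restrains kinase signalling, with a change of -0.76 ± 0.12 (adjusted p = 0.00679), and Irf5, which drives inflammatory cytokine genes, with -0.82 ± 0.16 (adjusted p = 0.0151). In the double knockout, where 5.28% of all genes passed, 3 fell: Ptpn6 with a change of -0.65 ± 0.12 (adjusted p = 0.0192), Irf2, a repressor of interferon-induced genes, with -1.30 ± 0.29 (adjusted p = 0.0306) and Irf3, which switches on interferon beta, with -0.72 ± 0.17 (adjusted p = 0.0398). None of the 12 passed in Fancg-/-. When 1 array was left out at a time, the calls in the double knockout were lost in 6 of the 12 fits for Irf2 (limma adjusted p up to 0.138), 7 for Irf3 (up to 0.168) and 5 for Ptpn6 (up to 0.0987). Each was lost without any 1 of the WT arrays and without double knockout replicate 2 or 3, and Irf2 also without Fancg-/- replicate 2 and Irf3 without Fancg-/- replicate 1 or 2. Irf5 in Fancc-/- was lost without WT replicate 1 or 3 (up to 0.0649), and Ptpn6 in Fancc-/- passed in all 12 fits. With all probe sets of a gene averaged, Irf5 read -0.31 in Fancc-/- (adjusted p = 0.166) and Irf3 -0.43 in the double knockout (adjusted p = 0.0517). Ptpn6 had 9.92, 10.19 and 9.89 in Fancc-/-, 10.41, 10.41 and 10.72 in Fancg-/-, 10.28, 10.08 and 9.98 in the double knockout, and 10.79, 10.77 and 10.73 in WT, so it did not share the division of the Fancc-/- mice.

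None of 11 further sensing genes passed in a comparison with WT over all 12 arrays. Samhd1, which depletes nucleotides, read -0.75 ± 0.20 (adjusted p = 0.0529) and Sting1, the adaptor of DNA sensing, -0.64 ± 0.25 (adjusted p = 0.189) in Fancc-/-. Samhd1 passed without Fancc-/- replicate 2 or without double knockout replicate 1 (adjusted p = 0.0119 and 0.0451). Trim25, a ligase that acts on RIG-I, read 0.85 ± 0.27 (adjusted p = 0.0818) in the double knockout. It passed without Fancc-/- replicate 3 (adjusted p = 0.0439), without double knockout replicate 1 (adjusted p = 0.00797) and with its probe sets averaged (adjusted p = 0.0495). Of 54 further interferon-induced genes, 1 rose and 1 fell in Fancc-/-, where 4.53% of all genes passed. Ube2l6, the enzyme that passes Isg15 to its ligases, rose by 1.17 ± 0.17 (adjusted p = 0.00345). It had 9.30, 9.13 and 8.99 in Fancc-/-, 8.09, 8.37 and 8.21 in Fancg-/-, 8.59, 8.27 and 8.70 in the double knockout, and 8.26, 7.97 and 7.69 in WT. Unlike the Isg15 system members Usp18 and Herc6, Ube2l6 was high in all 3 Fancc-/- mice.

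Ly6e, a cell surface protein, fell by 0.63 ± 0.15 (adjusted p = 0.0335) in Fancc-/-, and Trim34a fell by 1.71 ± 0.40 (adjusted p = 0.0364) in the double knockout. Both calls were lost without any 1 of the WT arrays, that of Ly6e also without Fancg-/- replicate 1 (limma adjusted p up to 0.116) or in a fit of only the Fancc-/- and WT arrays (0.117), and that of Trim34a also without Fancg-/- replicate 2 or double knockout replicate 2 or 3 (up to 0.150). With its probe sets averaged, Trim34a read -0.87 (adjusted p = 0.0666). Without Fancc-/- replicate 3, 5 of the 54 rose and 1 fell in Fancc-/-, where 4.73% of all genes passed. Among them were Ifi27 at 1.21 ± 0.16 (adjusted p = 0.00202) and Igtp, a GTPase induced more by interferon gamma, at 1.29 ± 0.20 (adjusted p = 0.00405). Ifi27 had 11.33, 10.75 and 9.03 in Fancc-/- and 9.99, 9.65 and 9.85 in WT, the division seen for the members. The 54 genes as a list did not share the rise of the members on replicates 1 and 2. Their median relative to the WT mean was -0.01, 0.13 and -0.59 on Fancc-/- replicates 1 to 3.

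Marker genes of marrow cell types moved with these arrays. The median of 11 plasmacytoid dendritic cell markers, relative to the WT mean, was -0.77, -0.52 and -2.07 in Fancc-/- replicates 1 to 3. Each Fancc-/- array was below every WT array for 10 of the 11, and their summed linear signal was 905 to 1925 in Fancc-/-, 1679 to 2382 in Fancg-/-, 1696 to 2582 in the double knockout and 3414 to 4359 in WT. This list also holds Bst2, which interferon induces, and genes that B cells express, such as Tcf4 and Spib. Its defining genes Siglech and Ccr9 had 5.62 and 3.98 on Fancc-/- replicate 3, against at least 8.31 and 7.73 on the WT arrays, and Ccr9 was there at or below the array median.

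The median of 14 monocyte and macrophage markers was -0.22, -0.34 and -0.95 in Fancc-/-, with summed signals of 15408 to 18168 in Fancc-/- and 21595 to 24692 in WT. Cx3cr1 had 8.74, 8.39 and 5.25 in Fancc-/- and 9.19, 9.07 and 9.16 in WT. Eosinophil, basophil and mast cell markers had medians of -0.80, -0.70 and -2.79 in Fancc-/-, and T and NK cell markers -0.26, -0.05 and -0.75. Irf8, a factor that dendritic cells and monocytes need, had 9.65, 10.30 and 7.69 in Fancc-/- and 10.88, 10.85 and 10.65 in WT. On replicate 3 the low members thus stood beside low markers of several immune cell types, and the part of those cells in the low values was not tested. On replicates 1 and 2 the members were above WT while the plasmacytoid dendritic cell and monocyte medians were below it. Erythroid markers had medians of 1.39, 1.16 and 0.87 in Fancc-/-, above WT on all 3 arrays, and B cell markers -2.55, -1.97 and -2.72, below it on all 3. The medians of 8 plasma cell markers were 0.25, 0.19 and -0.80 in Fancc-/- and 0.09, 0.14 and -0.21 in WT. Those of 7 megakaryocyte and platelet markers were 0.42, 0.66 and -0.09 in Fancc-/- and 0.77, -0.36 and -0.64 in WT. These last 2 lists were positive on Fancc-/- replicates 1 and 2 and negative on replicate 3, the signs of the member medians. The part of these cell types was likewise not tested.

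**Figure D4:**
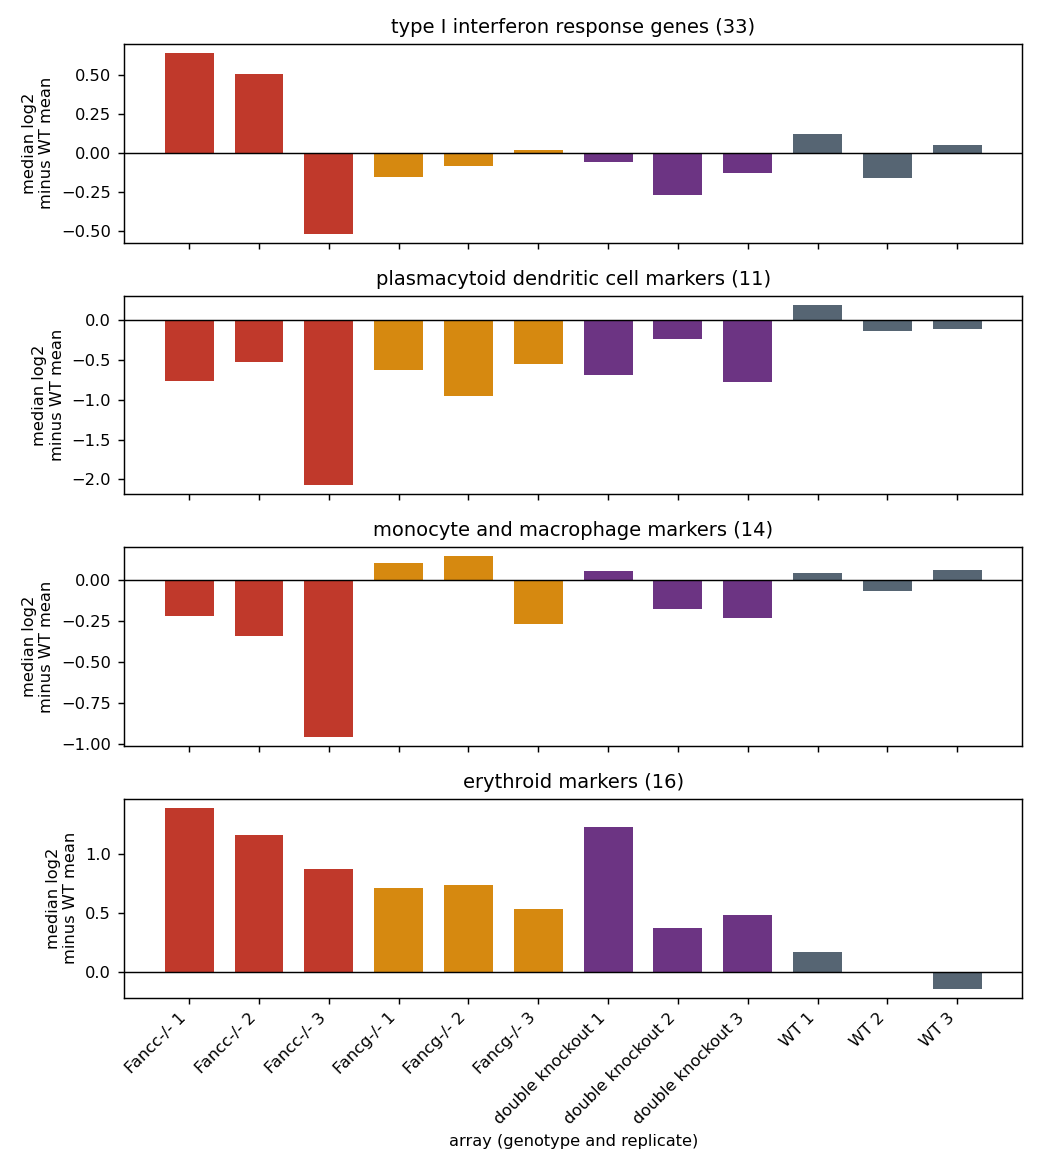
Bars show, for each of the 12 arrays, the median log2 signal minus the WT mean over the 33 members and over the plasmacytoid dendritic cell (11), monocyte and macrophage (14) and erythroid (16) markers. The member bars are at 0.64, 0.50 and -0.51 on Fancc-/- replicates 1 to 3, while each of the 3 marker lists drawn keeps 1 sign over these 3 arrays.

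The second and further probe sets of the members gave a partial check on the array pattern. There were 24 of them, and 16, from 12 members, were above the filter. Of these 16, replicates 1 and 2 of Fancc-/- were above every WT array in 4, compared with 17.1% of all genes. Replicate 3 was below every WT array in 13, compared with 37% of all genes. The low values of replicate 3 were thus seen on most of these probe sets, and the high values of replicates 1 and 2 on few. Both further probe sets of Rsad2 had replicates 1 and 2 above every WT array, with differences of 1.07 and 1.14 for Fancc-/- minus WT.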

How the data were processed

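The deposited table holds log2 signals of 45101 probe sets on 12 arrays, which the authors computed by RMA. This method corrects background, normalizes arrays by quantiles and summarizes the probes of a set. Per the submitters' processing notes, the tools were RMA and Partek, given with no version. Per the labels, 2 µg of total RNA went into each array (0.91 µg for Fancg-/- replicate 3) and was amplified from an oligo-dT primer. From these values, control probe sets (64), those with several gene symbols (932) and those with none (9160) were left out. A gene was tested if above the array median on at least 3 arrays, and all 34 measured members kept their symbol on a match by Entrez ID.

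One linear model per gene was fitted with limma 3.58.1 (R 4.3.3) over the 12 arrays together (lmFit, contrasts.fit, eBayes with a variance trend, 8 residual degrees of freedom). Tests were 2-sided. In each of 7 comparisons p was adjusted over all 11908 genes (Benjamini-Hochberg), and a gene passed, or was called, at an adjusted p below 0.05. The fit was tested on simulated data. Precision is limited by 3 arrays per group. The members and lists were chosen with earlier results of these data known. Named are the members called, the 5 with the smallest p in each comparison with WT, and the called genes (up to 4) of each further list, or else the 2 with the smallest p. Genes and values shown beyond this rule were chosen after their values were seen. No sign was seen that replicate numbers paired the mice, though groups of 3 cannot exclude it. Over 18 pairs with the same number the correlation of deviations from the group mean ran from -0.37 to 0.20. Over 36 pairs with different numbers it ran from -0.23 to 0.36. Alternatives covered the filter, probe set choice, scaling, variance model, arrays fitted, a replicate block and each array left out.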

Additional observations from a re-analysis of the deposited data

How the results depend on the processing

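The number of members that passed moved mainly with which arrays were in the fit. Leaving out 1 array at a time, it ran from 0 to 11 for Fancc-/- minus WT, 0 to 5 for the double knockout minus WT, 0 to 13 for the double knockout minus Fancc-/-, 0 to 2 for the double knockout minus Fancg-/-, 0 to 9 for Fancg-/- minus Fancc-/- and 0 to 5 for the interaction, and stayed at 0 for Fancg-/- minus WT. The highest counts came without Fancc-/- replicate 3, except for the double knockout minus Fancg-/-, where it came without double knockout replicate 1. Without double knockout replicate 1 the counts were 4 against WT, 5 against Fancc-/- and 3 for the interaction. The single call in Fancc-/-, Isg20, was lost without WT replicate 2 or 3, Fancc-/- replicate 1 or 2, or Fancg-/- replicate 1 or 2, and in the fit of only the Fancc-/- and WT arrays, where 0 members passed.

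The median member change ran from -0.05 to 0.59 for Fancc-/- minus WT, -0.23 to -0.06 for the double knockout minus WT, -0.74 to -0.16 for the double knockout minus Fancc-/-, -0.14 to 0.038 for the double knockout minus Fancg-/- and -0.68 to -0.05 for Fancg-/- minus Fancc-/- when 1 array was left out. With a filter at the 75th percentile of the array the median for the double knockout minus WT was -0.0025. Ifnz in Fancg-/- minus WT ran from -0.072 to 0.084 and turned sign without Fancg-/- replicate 1. The cause of these shifts was not tested.

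No sign was seen that replicate numbers paired the mice. With the replicate block the members called stayed at 1 for Fancc-/- minus WT and 0 elsewhere, and 528 genes of all tested passed for Fancc-/- minus WT, against 540 without the block. Irf3 in the double knockout lost its call with the block (adjusted p = 0.0552), without the filter on dim genes (0.0501) and with each array centred on its median (0.0538), Irf2 in the fit of only the double knockout and WT arrays (0.0604) and Ly6e in Fancc-/- without the variance trend (0.0508). Over all genes, the alternatives other than leaving out an array gave 247 to 617 calls for Fancc-/- minus WT (540 as reported), 2 to 72 for Fancg-/- minus WT (6), 456 to 649 for the double knockout minus WT (629), 1 to 38 for the double knockout minus Fancc-/- (1), 0 to 2 for the double knockout minus Fancg-/- (0), 0 to 18 for Fancg-/- minus Fancc-/- (13) and 0 to 6 for the interaction (1). Members near the array median, such as Ifit1 outside 2 Fancc-/- arrays, have little signal over background there, and 3 mice per group limit all tests.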
